A study of Mus musculus with 24 samples.

Results

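The libraries described here came from whole lungs of mice kept under low oxygen, set against lungs of mice kept in normal air, all given the drug vehicle alone. They make up 12 of the 24 libraries of the series and were chosen by their labels: 6 for hypoxia with vehicle and 6 for normoxia with vehicle, each at day 2. Every animal was a young male of the strain C57BL6/j, and the labels name no genetic change. The other 12 libraries came from mice given ABT-263 at 50 mg/kg/day, again 6 under hypoxia and 6 under normoxia. ABT-263 (navitoclax) inhibits survival proteins of the BCL-2 family. Those libraries enter here through the estimate of the spread and through 1 comparison at the end. The sources used here give neither the oxygen level of the chamber nor whether a library holds 1 animal or a pool. The p-values measure the spread between libraries, part of which may be technical.

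Cells sense low oxygen through prolyl hydroxylases of the Egln family, which mark the alpha subunits of hypoxia-inducible factor (HIF) for destruction by the Vhl ubiquitin ligase. When oxygen falls, the alpha subunits accumulate and HIF switches on genes of glycolysis, vessel growth and mitochondrial turnover. In the lung, hypoxia also constricts small arteries, and in rodents kept hypoxic for weeks the artery walls gain muscle and matrix and the pulmonary pressure climbs. The libraries taken at day 2 address the early part of that course.

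The values are expected counts for 54532 gene models, of which 16935 passed the filter on low counts, and libraries held 12854109 to 17095152 counts. All 14 lung identity markers (epithelial, endothelial, fibroblast, macrophage and leukocyte genes) had counts in every library. Their summed level ranged from 73489 to 114762 counts per 1000000 counts (CPM) under hypoxia and from 118246 to 131803 CPM under normoxia. Much of that sum was 1 airway gene, Scgb1a1, which took 4.98 to 8.39% of the counts under hypoxia and 8.53 to 10.7% under normoxia. Haemoglobin genes took 1.47 ± 0.360% of the counts under hypoxia, against 0.385 ± 0.0800% under normoxia (SD, n = 6 each; two-sided exact permutation test, p = 0.0021645, the smallest this design allows, and 0.01082 after adjustment over 5 library measures). Total counts, the number of genes detected and the mitochondrial share gave adjusted p-values of 0.847, 0.581 and 0.989 in the same exact test. The fifth measure was a slope on log2 exonic length. It used each gene's log2 level as a deviation from its mean over all 24 libraries, so its sign is relative to the other libraries. The slope was -0.033 ± 0.077 under hypoxia and 0.0448 ± 0.0263 under normoxia (SD, n = 6 each). The exact permutation test gave p = 0.0411 and an adjusted p of 0.103. Hypoxia libraries scattered more widely: the median SD of log2 levels was 0.185 under hypoxia and 0.139 under normoxia over 12387 genes. On the second principal component, which held 17.7% of the variance against 47.0% for the first, hypoxia libraries 1 and 5 lay apart from 3, 4 and 6. The same libraries differed in that length slope, with values of -0.11, -0.13 and -0.06 in libraries 3, 4 and 6 and of 0.04 and 0.06 in libraries 1 and 5 (log2 level per log2 of exonic length). A call that is lost without either set of libraries, or with that slope in the model, is named where it stands. In whole tissue, fewer cells of a type and less RNA per cell cannot be told apart.

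Low oxygen was accompanied by widespread but mostly small differences. Of the 16935 genes tested, 6053 (35.7%) passed an adjusted p of 0.05 in edgeR's quasi-likelihood test. Among them 3208 (18.9% of the genes tested) were higher under hypoxia and 2845 (16.8%) were lower. With libraries scaled by total counts alone the split was 2632 higher and 3581 lower, so the balance of directions rests on the scaling. With hypoxia libraries 3, 4 and 6 left out, 3974 genes passed. Of the called genes 60% changed less than 1.5-fold, while 829 (4.9% of the genes tested) changed 2-fold or more, 487 of them higher and 342 lower. At 4-fold or more, 99 genes were higher and 32 lower. In 1844 genes (10.9%) every hypoxia library lay above every normoxia library, and in 1174 (6.93%) every hypoxia library lay below. These shares are the background against which the gene groups are read.

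**Figure D1:**
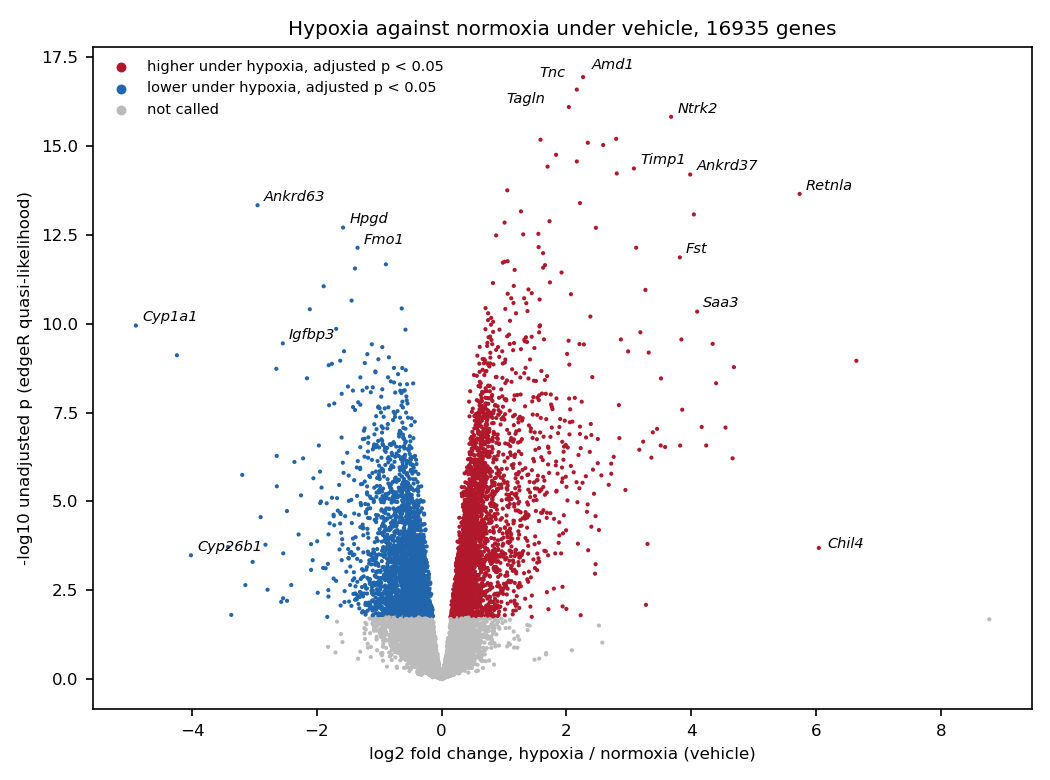
Each point is 1 of the 16935 genes tested, with the log2 fold change of hypoxia over normoxia under vehicle on the x axis and the -log10 of the unadjusted p on the y axis; red and blue mark the 3208 genes higher and the 2845 lower at an adjusted p under 0.05. Retnla and Chil4 lie far to the right and Cyp1a1 far to the left, while Amd1, Tnc and Tagln reach the smallest p-values at changes near 2 log2 units.

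The oxygen-sensing genes themselves moved modestly. Hif1a, one of the HIF alpha subunits, had 48.9, 56.0 and 71.1 CPM under hypoxia (lowest, median and highest library, as for every triplet of values), against 33.2, 37.2 and 40.4 CPM under normoxia. Every hypoxia library lay above every normoxia library, with a log2 fold change of 0.64 ± 0.08 (SE) and an adjusted p of 2.45e-06. Epas1, the alpha subunit abundant in endothelium and also called HIF-2 alpha, went the other way and had 1066, 1144 and 1310.1 CPM under hypoxia, against 1817, 1921 and 2295 CPM under normoxia (log2 fold change -0.76 ± 0.11, adjusted p = 7.44e-06). Again the groups did not overlap. Egln3, a hydroxylase that is itself a HIF target in many cells, had a log2 fold change of 0.74 ± 0.26 (adjusted p = 0.0269), and its highest hypoxia library, number 3, held 6.51 CPM where the next held 3.73. Without that library the adjusted p was 0.105, without normoxia library 2 it was 0.0716, without normoxia library 3 it was 0.0554, without hypoxia libraries 3, 4 and 6 it was 0.18, and with the length slope it was 0.079. Hif3a, an alpha subunit that can dampen HIF activity, did not pass at 1.09 ± 0.44 (adjusted p = 0.0578). It passed in DESeq2 on all 24 libraries (0.0308) and in edgeR with only the 12 vehicle libraries in the fit (0.0136). It also passed with the length slope (0.00105) and without hypoxia libraries 3, 4 and 6 (0.0485). Of the 11 sensing genes listed, 4 were higher, 3 lower and 4 did not pass.

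Among 36 tested HIF target genes, 15 were higher, 3 lower and 18 did not pass, and the median log2 fold change was 0.17, against -0.04 over all genes tested. The response was uneven within the list. Ankrd37, an ankyrin-repeat gene used as a reporter of HIF activity, had 70.4, 107 and 138 CPM under hypoxia, against 5.34, 6.72 and 8.89 CPM under normoxia. That is 15.8-fold by the means, the largest change of the list (log2 fold change 3.98 ± 0.24, adjusted p = 7.55e-12). Its gene model (chromosome 8, 45996902 to 46005707, GRCm38) overlaps Lrp2bp and Ufsp2 on the opposite strand. Bnip3, a mitophagy receptor of the outer mitochondrial membrane, had 112, 146 and 158 CPM under hypoxia, against 37.6, 42.0 and 52.5 CPM under normoxia. In both genes all 6 hypoxia libraries lay above all 6 normoxia libraries, and the log2 fold change of Bnip3 was 1.70 ± 0.10 (adjusted p = 5.76e-12). The mitochondrial protein gene Fam162a (1.02 ± 0.09, adjusted p = 1.09e-08) and the transcriptional repressor gene Bhlhe40 (1.28 ± 0.19, adjusted p = 1.24e-05) rose as well.

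Some of the best-known members did not pass or were lower. Vegfa, the main growth factor of blood vessels, had 540.4, 741 and 1141 CPM under hypoxia, against 782, 923 and 1069 CPM under normoxia. The groups overlapped widely, and the log2 fold change of -0.17 ± 0.20 (adjusted p = 0.523) had a 95% interval of -0.58 to 0.23. Slc2a1, the glucose transporter GLUT1, had 29.2, 33.0 and 42.9 CPM under hypoxia, against 32.4, 36.4 and 39.2 CPM under normoxia, with a 95% interval for the log2 fold change of -0.35 to 0.19 (adjusted p = 0.671). These intervals leave out a 2-fold rise of either gene. The 3 members that were lower were the chemokine receptor gene Cxcr4 (-0.91 ± 0.19, adjusted p = 0.000482), the lipid-droplet gene Hilpda (-0.54 ± 0.16, adjusted p = 0.0101) and Pfkfb4, an enzyme that tunes glycolysis (-0.32 ± 0.11, adjusted p = 0.0213). The call for Pfkfb4 was lost without hypoxia library 3 (0.0718), hypoxia library 6 (0.0583) or normoxia library 6 (0.0702), without hypoxia libraries 3, 4 and 6 (0.428) and with the length slope (0.213).

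The promoter windows of Ankrd37 and Bnip3 are shown because both hold the HIF core letters ACGTG or GCGTG, printed in capitals on either strand. A palindromic CACGTG counts once on each strand, and matches may overlap. The windows are RefSeq sequences of GRCm38.p6, from 250 bases before to 50 bases after the annotated start, read on the gene's strand. Ankrd37 is at chr8:45999801-46000100 (minus strand, 4 matches) and Bnip3 at chr7:138909457-138909756 (minus strand, 5 matches).
Ankrd37: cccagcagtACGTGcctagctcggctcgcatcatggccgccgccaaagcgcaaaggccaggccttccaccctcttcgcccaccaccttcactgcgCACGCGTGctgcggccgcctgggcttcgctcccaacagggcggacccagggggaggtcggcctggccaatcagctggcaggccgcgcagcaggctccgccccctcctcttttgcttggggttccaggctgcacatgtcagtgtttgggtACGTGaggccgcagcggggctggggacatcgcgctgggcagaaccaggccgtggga
Bnip3: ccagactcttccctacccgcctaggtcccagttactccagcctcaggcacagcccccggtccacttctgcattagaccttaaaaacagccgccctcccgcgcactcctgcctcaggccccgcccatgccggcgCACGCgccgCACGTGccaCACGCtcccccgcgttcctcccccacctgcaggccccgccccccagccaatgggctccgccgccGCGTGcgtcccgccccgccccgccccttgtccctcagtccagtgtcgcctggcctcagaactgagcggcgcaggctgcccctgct
The same letters are common: 59.7% of the first windows of 12253 tested genes held a match. Among HIF targets with a window, 8 of 9 called higher, 12 of 14 not called and 3 of 3 called lower held one. Among glycolysis genes with a window these were 8 of 11 called higher, 2 of 5 not called and 2 of 2 called lower.

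Transcripts of glycolysis, which makes ATP without oxygen, were more often higher than lower. Of its 18 genes 11 were higher, 2 lower and 5 did not pass, with a median log2 fold change of 0.47. Ldha, which turns pyruvate into lactate, had 464, 648 and 741 CPM under hypoxia, against 281, 305 and 316 CPM under normoxia, with no overlap (log2 fold change 1.03 ± 0.13, adjusted p = 9.46e-07). Pfkl, a phosphofructokinase subunit, had a log2 fold change of 0.77 ± 0.12 (adjusted p = 3.15e-05), whereas the muscle subunit Pfkm had -0.48 ± 0.13 (adjusted p = 0.00566, and 0.0639 without hypoxia libraries 3, 4 and 6). Ldhb, the lactate dehydrogenase subunit of oxidative tissues, was lower at -0.49 ± 0.19 (adjusted p = 0.0477), a call that was lost on leaving out any 1 library other than hypoxia library 3, with adjusted p-values up to 0.109, and without hypoxia libraries 1 and 5 (0.294), with DESeq2's size factors (0.0518), with haemoglobin genes left out of library sizes (0.0674) and under other filters on low counts (0.0609 and 0.141). With the length slope in the model, or without hypoxia libraries 3, 4 and 6, 5 genes were higher in place of 11.

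**Figure D2:**
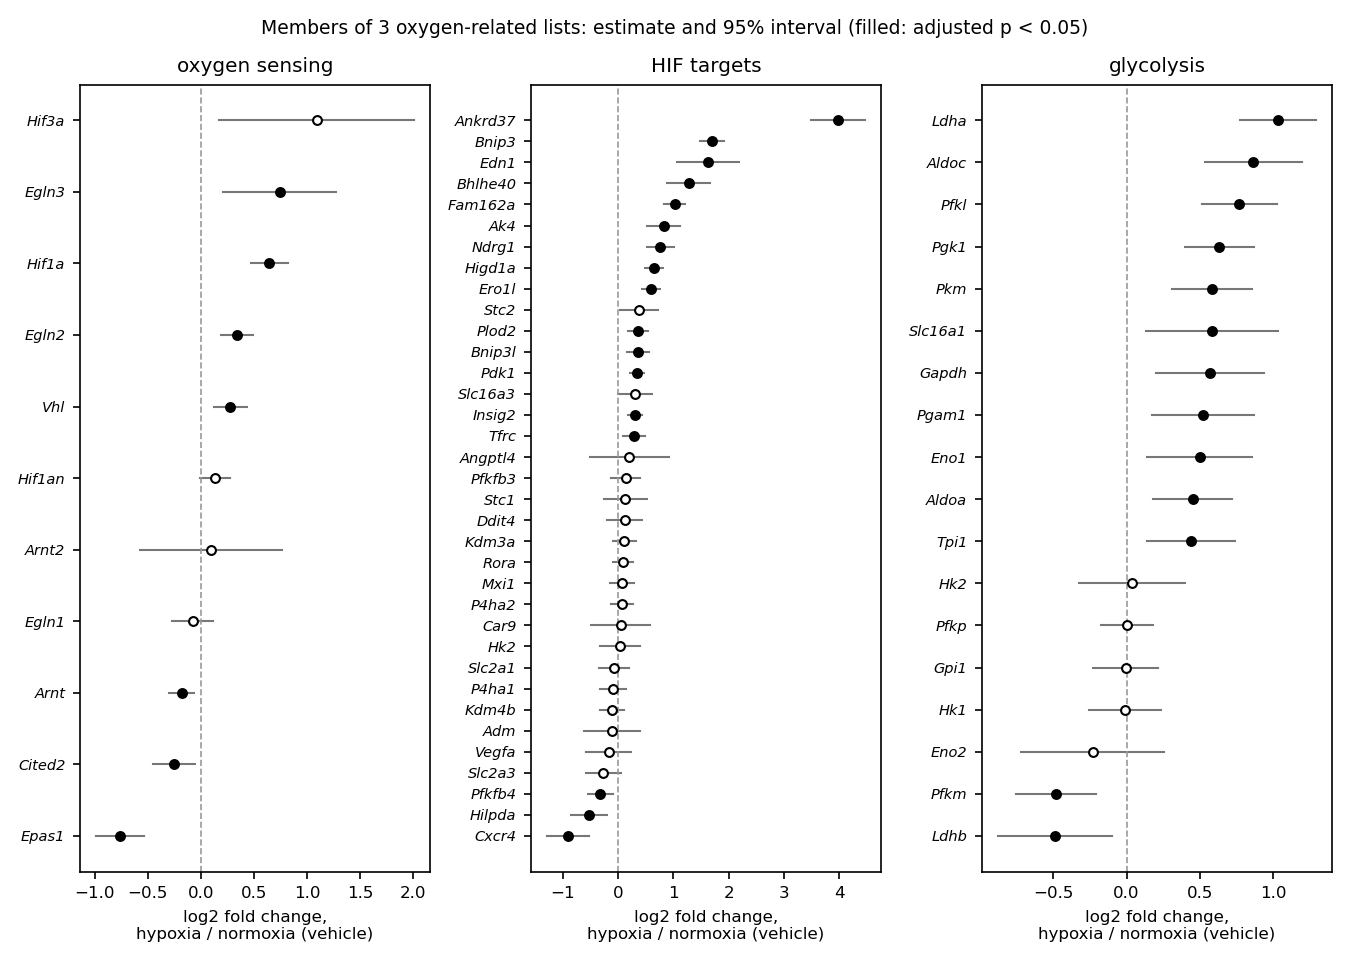
Points give the log2 fold change of hypoxia over normoxia under vehicle for the tested genes of the oxygen-sensing, HIF target and glycolysis lists, 1 HIF target left out, and bars give the 95% interval of the fit; filled points passed an adjusted p of 0.05. Ankrd37 stands far to the right of the HIF targets, the intervals of Vegfa and Slc2a1 include 0, and Cxcr4 lies lowest.

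The smallest p-values of the whole comparison belonged to genes with tight replicates rather than the largest changes. Amd1, the decarboxylase that supplies aminopropyl groups for polyamines, had 113, 137 and 153 CPM under hypoxia, against 23.2, 28.3 and 31.7 CPM under normoxia (log2 fold change 2.27 ± 0.11, adjusted p = 1.91e-13). Tenascin C (Tnc), a matrix glycoprotein of injured and remodelling tissue, had 70.1, 75.0 and 85.2 CPM under hypoxia, against 14.2, 17.3 and 18.6 CPM under normoxia (2.17 ± 0.11, adjusted p = 2.15e-13). Transgelin (Tagln), an actin-binding protein of smooth muscle, had 919.7, 1108 and 1256 CPM under hypoxia, against 231, 269 and 296 CPM under normoxia (2.04 ± 0.10, adjusted p = 4.43e-13). The 2 groups were far apart in all of these genes. Amd1 has near-identical copies in the mouse genome and Tagln overlaps Pcsk7 on the opposite strand, so their counts are less certain as single genes. Next came Ntrk2, the receptor of brain-derived neurotrophic factor, with 95.2, 117 and 130.0 CPM under hypoxia, against 8.01, 8.51 and 11.8 CPM under normoxia. Placental growth factor (Pgf), a ligand of the VEGF receptor Flt1, rose by 2.80 ± 0.16 log2 units, the cold-inducible RNA-binding protein gene Rbm3 by 1.58 ± 0.09, the galectin gene Lgals1 by 2.34 ± 0.13 and the collagen VIII gene Col8a1 by 2.59 ± 0.15 (adjusted p between 1.95e-12 and 1.84e-12). Hypoxia libraries lay above normoxia libraries without overlap in each of these 5 genes.

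On the lower side, the smallest p belonged to Ankrd63, an ankyrin-repeat gene, with 1.39, 1.82 and 2.81 CPM under hypoxia, against 13.1, 14.6 and 17.3 CPM under normoxia (log2 fold change -2.95 ± 0.20, adjusted p = 4.3e-11). Hpgd, which inactivates prostaglandins and for which lung is a major site, had 177, 207 and 252 CPM under hypoxia, against 513.2, 609.5 and 769.9 CPM under normoxia (-1.58 ± 0.11, adjusted p = 1.39e-10). Fmo1, a flavin-containing monooxygenase, had 116, 134 and 156 CPM under hypoxia, against 318, 344 and 365 CPM under normoxia (-1.35 ± 0.10, adjusted p = 4.06e-10). None of these ranges overlapped. Pdzd2 (-1.39 ± 0.11), the transcription factor gene Sox11 (-1.89 ± 0.16), the kinesin gene Kif26b (-1.44 ± 0.13) and the ubiquitin ligase gene Rnf167 (-0.64 ± 0.06) were also among the 8 with the smallest p (adjusted p at most 1.07e-08), all of them without overlap.

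The largest rise among called genes with a mean of 5 CPM or more and no overlap was that of Retnla, a secreted protein of type 2 immunity, the programme driven by interleukins 4 and 13 that turns on resistin-like molecules, chitinase-like proteins and mucus genes. Retnla, first described in inflamed lung as FIZZ1 and known from mouse studies of hypoxic lung as hypoxia-induced mitogenic factor, had 3077, 5430.3 and 10095 CPM under hypoxia, against 70.1, 106 and 139.8 CPM under normoxia. The lowest hypoxia library held 22.01 times the level of the highest normoxia library, and the log2 fold change was 5.74 ± 0.36 (adjusted p = 2.32e-11). Its window at chr16:48842359-48842658 (plus strand, GRCm38.p6) is shown because it holds 1 match to the STAT6 letters TTC and GAA parted by 4 bases, in capitals with the bases between them, STAT6 being the factor that interleukins 4 and 13 activate.
Retnla: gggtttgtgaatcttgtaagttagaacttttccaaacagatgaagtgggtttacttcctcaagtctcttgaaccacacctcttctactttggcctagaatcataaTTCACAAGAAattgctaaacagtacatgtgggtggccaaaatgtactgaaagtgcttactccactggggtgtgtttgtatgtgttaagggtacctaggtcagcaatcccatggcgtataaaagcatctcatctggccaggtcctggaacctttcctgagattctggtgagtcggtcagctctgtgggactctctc
These letters were found in 5.38% of the first windows of tested genes, in 3 of 8 windows of type 2 genes called higher, in 2 of 11 of those not called and in 0 of 3 of those called lower.

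Of 27 tested genes of the type 2 list 12 were higher, 3 lower and 12 did not pass, with a median log2 fold change of 0.38. Retnlb, the resistin-like molecule of goblet cells, had 255 counts over the 6 hypoxia libraries and 2 over the 6 normoxia libraries, a ratio of 130.2 with a 95% counting interval of 35.7 to 1081. The interval covers counting error only. Retnlg rose less, with 9.92, 18.7 and 30.6 CPM under hypoxia, against 7.10, 8.95 and 13.7 CPM under normoxia (0.99 ± 0.22, adjusted p = 0.00116). Chil3, the chitinase-like protein Ym1 of macrophages, had 339.6, 527.1 and 705 CPM under hypoxia, against 141, 176 and 211 CPM under normoxia (1.60 ± 0.18, adjusted p = 2.33e-07), although reads can be split between it and its near-identical neighbour Chil4. Arg1, the arginase of alternatively activated macrophages, had 4.78, 5.32 and 7.49 CPM under hypoxia, against 1.57, 2.40 and 3.91 CPM under normoxia, without overlap. The chloride channel regulator gene Clca1, a marker of goblet cells, varied from 0 to 143 CPM among hypoxia libraries and from 0.295 to 15.6 CPM among normoxia libraries (3.27 ± 1.12, adjusted p = 0.0272). Its call was lost on leaving out hypoxia library 3 or 4 or normoxia library 1, 2, 4 or 6 (adjusted p up to 0.0881), without hypoxia libraries 3, 4 and 6 (log2 fold change 0.65, adjusted p = 0.769), with the length slope (0.24), in limma-voom (0.465) and with no filter on low counts (0.0602).

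Airway secretory genes were among those raised. Agr2, a disulfide isomerase needed to fold mucins, had 13.7, 29.0 and 84.0 CPM under hypoxia, against 1.79, 3.004 and 9.09 CPM under normoxia (3.45 ± 0.45, adjusted p = 3.7e-06). Lactotransferrin (Ltf), an iron-binding antimicrobial protein, had 114, 160.5 and 293 CPM under hypoxia, against 12.6, 25.5 and 64.9 CPM under normoxia (2.50 ± 0.37, adjusted p = 1.95e-05). Ltf also stands in the list of neutrophil genes, and its cell of origin was not tested. The airway mucin gene Muc5b had 106, 163 and 238 CPM under hypoxia, against 32.5, 67.7 and 121 CPM under normoxia, so that the groups overlapped while the log2 fold change of 1.19 ± 0.27 passed (adjusted p = 0.00158). Of 21 club and goblet genes 8 were higher (5 without hypoxia libraries 3, 4 and 6), 3 lower and 10 did not pass, and the most abundant club cell product did not pass: Scgb1a1 had a log2 fold change of -0.38 ± 0.19 (adjusted p = 0.121), but -0.46 with total-count scaling (0.0228) and -0.71 with the length slope (0.00146). The lower members included Cyp2f2, the main cytochrome P450 of club cells, with 1507, 2493 and 4007 CPM under hypoxia, against 5644, 6145 and 8457 CPM under normoxia (-1.36 ± 0.24, adjusted p = 9.95e-05).

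**Figure D3:**
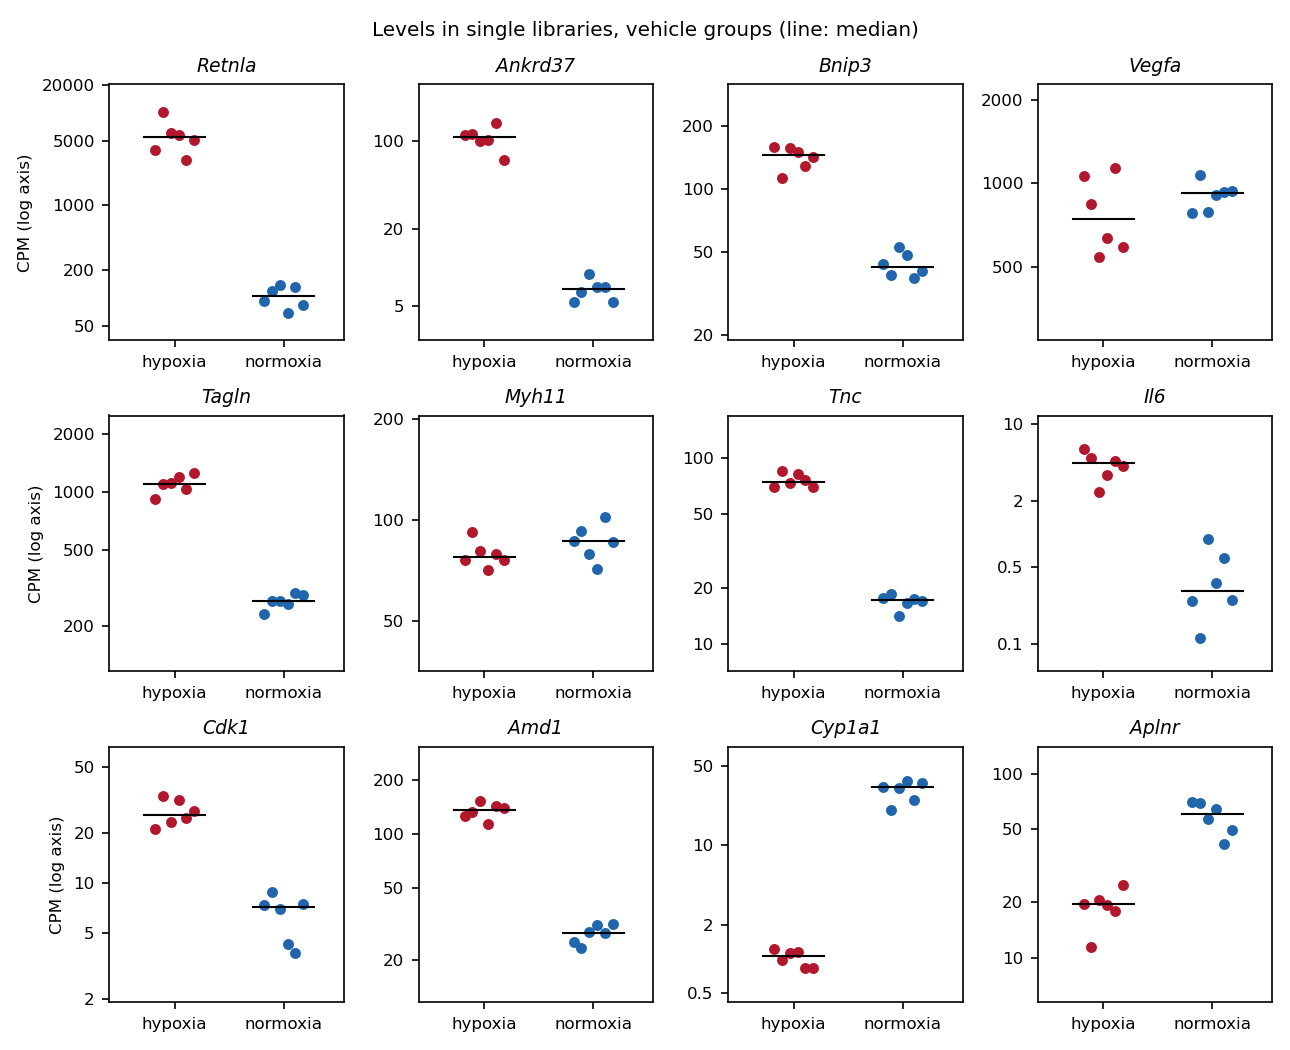
Each panel shows 1 gene, with 6 hypoxia libraries on the left and 6 normoxia libraries on the right, both under vehicle; points are single libraries in TMM-scaled CPM on a log axis and the line is the median. The hypoxia points lie above the normoxia points for Retnla, Ankrd37, Bnip3, Tagln, Tnc, Il6, Cdk1 and Amd1 and below them for Cyp1a1 and Aplnr, and the groups mix for Vegfa and Myh11.

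Genes that set vascular tone moved in both directions. Of 32 tested vasoactive ligands and receptors 11 were higher (5 without hypoxia libraries 3, 4 and 6), 11 lower and 10 did not pass, with a median log2 fold change of -0.11. Endothelin 1 (Edn1), the strongest known peptide constrictor of pulmonary arteries, had 48.4, 80.4 and 117 CPM under hypoxia, against 18.9, 25.6 and 37.2 CPM under normoxia, without overlap (1.63 ± 0.27, adjusted p = 6.37e-05). Its B-type receptor gene Ednrb, which clears endothelin from the lung circulation, had 18.1, 22.02 and 27.7 CPM under hypoxia, against 37.8, 46.3 and 54.4 CPM under normoxia (-1.04 ± 0.14, adjusted p = 3.76e-06). The ligand was thus higher and this receptor lower, each with separate ranges. Aplnr, the apelin receptor of capillary endothelium, had 11.4, 19.4 and 24.8 CPM under hypoxia, against 41.5, 60.4 and 70.2 CPM under normoxia (-1.63 ± 0.17, adjusted p = 1.42e-07). Npr3, the clearance receptor of natriuretic peptides, had 16.4, 19.0 and 21.0 CPM under hypoxia, against 41.8, 65.8 and 79.3 CPM under normoxia (-1.69 ± 0.16, adjusted p = 3.17e-08). Calcrl, the receptor subunit shared by adrenomedullin and calcitonin gene-related peptide, was higher at 0.79 ± 0.16 (adjusted p = 0.000378). The neurotensin receptor gene Ntsr2 showed the largest change of the list, with 3.42, 8.54 and 26.7 CPM under hypoxia, against 0.177, 0.387 and 0.838 CPM under normoxia (4.68 ± 0.50, adjusted p = 1.93e-07). Endothelial nitric oxide synthase (Nos3) passed narrowly at 0.45 ± 0.15 (adjusted p = 0.0234) and was lost without hypoxia library 1 (0.0527), hypoxia library 5 (0.1) or normoxia library 2 (0.0534), without hypoxia libraries 1 and 5 (0.305), with total-count scaling (0.0871) and with only the 12 vehicle libraries (0.0525).

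Potassium channels, whose closure depolarises pulmonary arterial muscle, were lower in 10 of 23 tested genes, higher in 1 and not called in 12 (median log2 fold change -0.20). Kcnk3, the TASK-1 leak channel mutated in some families with pulmonary arterial hypertension, had 8.71, 12.4 and 14.5 CPM under hypoxia, against 16.5, 19.5 and 21.97 CPM under normoxia, without overlap (-0.71 ± 0.15, adjusted p = 0.000573). Kcnq5 (-1.04 ± 0.23, adjusted p = 0.000864) and Kcna2 (-0.89 ± 0.20, adjusted p = 0.000872), both voltage-gated channels, were lower as well. The member that rose was Kcnj8 (0.51 ± 0.10, adjusted p = 0.000431), the pore of an ATP-sensitive channel of pericytes. Kcna5, the voltage-gated channel most studied in pulmonary artery muscle, fell below the count filter, with 31 counts in total over the 6 hypoxia libraries and 56 over the 6 normoxia libraries.

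Smooth muscle genes did not move as a block. Of 19 genes 8 were higher, 2 lower and 9 did not pass, with a median log2 fold change of 0.13. Smooth muscle actin (Acta2) had 423, 548 and 685 CPM under hypoxia, against 172, 201 and 230.0 CPM under normoxia, without overlap (1.45 ± 0.18, adjusted p = 1.01e-06). The regulatory myosin light chain gene Myl9 had 209.8, 259 and 296 CPM under hypoxia, against 93.3, 98.8 and 104 CPM under normoxia (1.38 ± 0.13, adjusted p = 1.21e-08). Tropomyosin 2 (Tpm2) and the enteric-type actin gene Actg2 rose by 1.31 ± 0.10 and 1.10 ± 0.16 log2 units (adjusted p = 1.97e-10 and 6.44e-06). Smooth muscle myosin heavy chain (Myh11), a marker of the mature contractile cell, had 70.9, 77.7 and 92.3 CPM under hypoxia, against 71.2, 86.4 and 102 CPM under normoxia. Its groups overlapped, with a 95% interval for the log2 fold change of -0.41 to 0.16 (adjusted p = 0.512). Calponin 1 (Cnn1) likewise did not pass at 0.13 ± 0.15 (adjusted p = 0.528). The CArG box is the site of serum response factor in contractile genes. Among smooth muscle genes with a window, 1 of 6 called higher, 0 of 7 not called and 0 of 2 called lower held it. The share over first windows of tested genes was 1.34%. Tagln and Myh11 had no window and were not examined.

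Pericyte genes were split, with 5 of 13 higher, 4 lower and 4 not called. Log2 fold changes over the list ran from -0.72 to 1.64, with a median of 0.05, and the genes shown next are among the higher ones. Higd1b, a marker of lung pericytes, had 66.7, 104 and 140.3 CPM under hypoxia, against 24.7, 32.2 and 44.0 CPM under normoxia (1.64 ± 0.16, adjusted p = 5.24e-08). Cspg4, the NG2 proteoglycan, had 34.4, 36.0 and 42.9 CPM under hypoxia, against 12.9, 15.7 and 17.1 CPM under normoxia (1.27 ± 0.09, adjusted p = 6.08e-11). Both were free of overlap.

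Capillary endothelial genes were more often lower than higher. Of 14 general capillary genes 8 were lower, 2 higher and 4 not called (median log2 fold change -0.43), and of 12 genes of aerocytes, the thin capillary cells of gas exchange, 7 were lower, 3 higher and 2 not called (median -0.33). The aerocyte count of 7 became 3 without hypoxia library 2, 4 without hypoxia library 6 and 3 without normoxia library 4. Plvap, the diaphragm protein of capillary fenestrae, had 76.6, 99.3 and 137 CPM under hypoxia, against 259.7, 337 and 471 CPM under normoxia (-1.72 ± 0.21, adjusted p = 1.12e-06). The endothelial surface receptor gene Cd93 had 100.5, 113 and 132 CPM under hypoxia, against 179, 207 and 283 CPM under normoxia (-0.97 ± 0.14, adjusted p = 6.06e-06). Neither range overlapped. Arterial genes showed 4 of 13 higher, 2 lower and 7 not called. Cxcl12, a chemokine of arterial endothelium, had 336, 485 and 579.9 CPM under hypoxia, against 121, 146 and 170.2 CPM under normoxia (1.73 ± 0.15, adjusted p = 2.74e-09), while its receptor gene Cxcr4 was lower, as given among the HIF targets. The arterial transcription factor gene Sox17 (0.90 ± 0.22, adjusted p = 0.00279) and the calcification inhibitor gene Mgp (1.16 ± 0.15, adjusted p = 3.08e-06) rose. Of 10 venous genes 2 were higher, 2 lower and 6 not called, the lower ones including the noradrenaline transporter gene Slc6a2 (-1.15 ± 0.23, adjusted p = 0.000307). Log2 fold changes over the venous list ran from -1.15 to 0.80. Of 11 lymphatic genes 2 were higher, 3 lower and 6 not called. The lower ones included the receptor gene Lyve1 (-1.18 ± 0.22, adjusted p = 0.000154), and the higher ones included podoplanin (Pdpn, 0.92 ± 0.19, adjusted p = 0.000603). Several settings left 1 called gene where these venous and lymphatic counts are 2 or 3.

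Within the VEGF family of 10 tested genes, 4 were higher, 3 lower and 3 not called. Beside Pgf, the lymphatic growth factor gene Vegfc had 23.1, 29.1 and 31.8 CPM under hypoxia, against 10.01, 13.2 and 15.2 CPM under normoxia (1.15 ± 0.10, adjusted p = 7.93e-09). Vegfd was higher by 0.51 ± 0.11 log2 units (adjusted p = 0.00108). The 3 raised ligands thus exclude Vegfa itself. In the Notch pathway 6 of 16 genes were lower, 1 higher and 9 not called: the ligand gene Dll4 had 28.2, 34.0 and 37.5 CPM under hypoxia, against 56.0, 65.4 and 88.5 CPM under normoxia (-1.01 ± 0.11, adjusted p = 1.33e-07), and the target gene Hey1 was lower by the fit (-0.67 ± 0.11, adjusted p = 2.43e-05). The ligand gene Jag2 was the higher member (0.65 ± 0.17, adjusted p = 0.00337). In the WNT pathway 9 of 28 genes were lower, 1 higher and 18 not called; the feedback gene Axin2 had 11.3, 12.9 and 15.5 CPM under hypoxia, against 17.0, 21.6 and 24.8 CPM under normoxia (-0.68 ± 0.12, adjusted p = 7.52e-05).

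Bone morphogenetic protein (BMP) and transforming growth factor beta (TGF-beta) signals counterbalance each other in the pulmonary artery wall, and loss of BMP receptor function underlies familial pulmonary arterial hypertension. Bmp6 had 35.4, 48.7 and 56.6 CPM under hypoxia, against 105, 127 and 149 CPM under normoxia (-1.42 ± 0.17, adjusted p = 6.27e-07). Bmpr2, the type 2 receptor mutated in familial disease, had 173, 182 and 193 CPM under hypoxia, against 206, 226 and 276 CPM under normoxia. Its fall was small (-0.36 ± 0.10, adjusted p = 0.00513) and did not pass without hypoxia libraries 3, 4 and 6 (0.069). Endoglin (Eng), the endothelial co-receptor, had 130.1, 141 and 163 CPM under hypoxia, against 222, 294 and 366 CPM under normoxia (-0.995 ± 0.13, adjusted p = 1.39e-06). The BMP antagonist gene Grem1 had 1.71, 2.81 and 4.48 CPM under hypoxia, against 0.672, 1.13 and 2.08 CPM under normoxia (1.29 ± 0.31, adjusted p = 0.00204). Over the BMP list 4 of 22 genes were higher, 5 lower and 13 not called, with a median log2 fold change of -0.03. These counts are near the shares over all genes tested, 18.9% higher and 16.8% lower. Bmp6, Grem1 and Eng had the largest changes among the called members, so they do not describe the list. Of 23 TGF-beta and activin genes 12 were higher, 6 lower (3 without hypoxia library 5, alone or with library 1) and 5 not called. Follistatin (Fst), which binds and blocks activins, had 21.3, 24.4 and 47.1 CPM under hypoxia, against 1.52, 2.11 and 2.36 CPM under normoxia (3.82 ± 0.29, adjusted p = 7.13e-10), by far the largest change of that list. The ligand gene Tgfb3 rose by 0.69 ± 0.10 log2 units (adjusted p = 7.56e-06).

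Genes of the extracellular matrix were more often higher than lower at day 2. Of 24 collagen chains 12 were higher, 2 lower and 10 not called (median log2 fold change 0.30), and of 37 matrix glycoprotein and elastic fibre genes 15 were higher, 4 lower and 18 not called (median 0.37). Col8a1, a short-chain collagen of vessel walls, had 44.0, 53.2 and 63.0 CPM under hypoxia, against 7.32, 8.81 and 9.96 CPM under normoxia. Loxl2, an enzyme that cross-links collagen, had 46.1, 48.7 and 61.1 CPM under hypoxia, against 13.97, 17.3 and 19.6 CPM under normoxia (1.63 ± 0.13, adjusted p = 5.59e-10). Versican (Vcan), a large proteoglycan of provisional matrix, had 13.5, 18.9 and 24.9 CPM under hypoxia, against 5.13, 6.74 and 8.07 CPM under normoxia (1.47 ± 0.22, adjusted p = 1.58e-05). All hypoxia libraries exceeded all normoxia libraries for these 3 genes. The hyaluronan synthase gene Has1 had a log2 fold change of 2.46 ± 0.65 (adjusted p = 0.00536, and 0.0737 without hypoxia libraries 3, 4 and 6). Fibulin 1 (Fbln1) was among the lower ones (-1.04 ± 0.18, adjusted p = 8.4e-05).

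Proteases and their inhibitors were more often higher than lower. Timp1, the inhibitor of matrix metalloproteinases most responsive to injury, had 64.5, 82.5 and 138 CPM under hypoxia, against 9.61, 10.5 and 12.2 CPM under normoxia (3.08 ± 0.18, adjusted p = 5.95e-12); it lies within Syn1 on the opposite strand. Timp4 rose by 1.46 ± 0.20 log2 units (adjusted p = 5.78e-06), and the aggrecanase gene Adamts4 by 1.37 ± 0.27 (adjusted p = 0.000299). The gelatinase gene Mmp9 had 3.28, 6.13 and 6.66 CPM under hypoxia, against 8.19, 11.5 and 22.8 CPM under normoxia, and so was lower without overlap (-1.22 ± 0.23, adjusted p = 0.000149). Of 29 tested proteases and inhibitors 14 were higher, 4 lower and 11 not called.

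Interleukin 6 and the acute-phase genes that it can induce were raised together, and the acute-phase list had the highest median change after the erythroid genes among lists of 10 or more tested genes. Il6 had 2.39, 4.40 and 5.98 CPM under hypoxia, against 0.112, 0.303 and 0.902 CPM under normoxia (3.38 ± 0.46, adjusted p = 4.39e-06). Its feedback inhibitor gene Socs3 had 51.2, 68.9 and 115 CPM under hypoxia, against 28.8, 33.0 and 39.4 CPM under normoxia (1.18 ± 0.17, adjusted p = 1.27e-05). Both were free of overlap. Of 22 tested genes of the interleukin 6 family and its receptors 6 were higher, 4 lower and 12 not called, with a median log2 fold change of 0.07. The related cytokine genes Lif (0.99 ± 0.22, adjusted p = 0.000846) and Il11 (1.17 ± 0.34, adjusted p = 0.00871) were higher with overlapping groups. Of 19 tested acute-phase genes 13 were higher, 0 lower and 6 not called, and the median log2 fold change was 1.27. Serum amyloid A3 (Saa3) had 53.9, 86.3 and 169 CPM under hypoxia, against 1.64, 5.48 and 7.82 CPM under normoxia (4.10 ± 0.35, adjusted p = 1.24e-08). Orosomucoid 1 (Orm1) had 10.2, 16.6 and 35.0 CPM under hypoxia, against 0.412, 1.202 and 2.45 CPM under normoxia (3.84 ± 0.38, adjusted p = 5.24e-08). Lipocalin 2 (Lcn2), an iron-sequestering protein, had 142, 230.0 and 458 CPM under hypoxia, against 42.8, 64.6 and 90.5 CPM under normoxia (1.96 ± 0.28, adjusted p = 8.51e-06). Saa and Orm genes have close paralogs between which reads can be shared.

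Monocyte-attracting chemokines of one family rose together. Ccl2 had 4.37, 7.51 and 11.9 CPM under hypoxia, against 0.63, 0.775 and 1.03 CPM under normoxia (3.27 ± 0.28, adjusted p = 3.99e-09). Ccl7 had 4.30, 7.93 and 10.9 CPM under hypoxia, against 0.668, 1.01 and 1.42 CPM under normoxia (2.87 ± 0.29, adjusted p = 5.24e-08). Ccl8 had 9.93, 12.7 and 16.8 CPM under hypoxia, against 2.91, 3.33 and 4.08 CPM under normoxia (1.90 ± 0.25, adjusted p = 2.25e-06). The ranges of all 3 genes were separate. In contrast Ccl20, which draws lymphocytes and dendritic cells through Ccr6, was lower (-2.29 ± 0.49, adjusted p = 0.000717), and so was fractalkine, Cx3cl1 (-1.09 ± 0.20, adjusted p = 0.000135). Over 25 tested chemokines 11 were higher, 2 lower and 12 not called.

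Proliferation genes had the largest share of called members in 1 direction among lists of 10 or more tested genes. Of 44 cell cycle genes 38 were higher, 0 lower and 6 not called, with a median log2 fold change of 1.11, and in 31 of the 44 the groups did not overlap. Cdk1, the kinase that drives mitosis, had 21.0, 25.8 and 33.3 CPM under hypoxia, against 3.81, 7.15 and 8.83 CPM under normoxia (2.04 ± 0.25, adjusted p = 8.91e-07). The mitotic kinase gene Pbk had 7.97, 13.2 and 17.0 CPM under hypoxia, against 1.48, 2.26 and 3.82 CPM under normoxia (2.41 ± 0.27, adjusted p = 3.19e-07). Ube2c, which feeds the anaphase-promoting complex, had 9.14, 12.4 and 15.6 CPM under hypoxia, against 1.57, 3.60 and 4.75 CPM under normoxia (1.83 ± 0.28, adjusted p = 2.17e-05). Cyclin B1 (Ccnb1) rose by 1.86 ± 0.30 log2 units (adjusted p = 3.24e-05). The windows of Cdk1, at chr10:69352863-69353162 (minus strand), and Ube2c, at chr2:164769679-164769978 (plus strand), are shown because they hold the letters TTTGAA of the cell cycle genes homology region (CHR), a site used by mitotic genes; matches on either strand are in capitals.
Cdk1: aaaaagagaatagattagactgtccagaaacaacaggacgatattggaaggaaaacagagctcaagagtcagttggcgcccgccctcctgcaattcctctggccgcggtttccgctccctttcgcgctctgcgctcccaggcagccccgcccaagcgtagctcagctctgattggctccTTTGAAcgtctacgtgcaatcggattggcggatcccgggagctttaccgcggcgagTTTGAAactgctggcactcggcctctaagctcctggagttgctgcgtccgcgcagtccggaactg
Ube2c: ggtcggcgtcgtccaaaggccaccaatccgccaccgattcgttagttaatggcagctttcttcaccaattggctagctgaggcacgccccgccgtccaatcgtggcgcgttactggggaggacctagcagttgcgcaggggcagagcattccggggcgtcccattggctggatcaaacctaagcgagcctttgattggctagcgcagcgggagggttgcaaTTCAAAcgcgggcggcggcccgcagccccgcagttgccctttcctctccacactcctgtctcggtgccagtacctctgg
Cdk1 holds 2 matches and Ube2c 1. Of the cell cycle genes with a window, 16 of 30 called higher and 0 of 4 not called held a match, against 12.6% of the first windows of 12253 tested genes.

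Genes of the ribosome biogenesis list were higher in 9 of 27 (14 without hypoxia libraries 1 and 5), lower in 0 and not called in 18, with a median log2 fold change of 0.18. That list holds Odc1 and Srm, which with Amd1 carry out polyamine synthesis and which rose by 0.67 ± 0.12 and 0.79 ± 0.16 log2 units (adjusted p = 7.02e-05 and 0.000388). Of 34 proteasome subunits 26 were higher, 0 lower and 8 not called, with a median log2 fold change of 0.44. The lid subunit gene Psmd14 had 113, 125 and 137 CPM under hypoxia, against 55.4, 60.3 and 64.9 CPM under normoxia (1.05 ± 0.07, adjusted p = 1.97e-11), and the core subunit gene Psma6 was higher by 0.75 ± 0.09 (adjusted p = 4.92e-07). Of 23 amino acid stress genes driven by ATF4, 13 were higher, 1 lower and 9 not called. They include Psat1, an enzyme of serine synthesis, with 37.1, 45.8 and 54.2 CPM under hypoxia, against 11.8, 14.03 and 19.1 CPM under normoxia (1.66 ± 0.13, adjusted p = 1.02e-09). The mitochondrial folate enzyme gene Mthfd2 (1.04 ± 0.18, adjusted p = 6.69e-05) and the amino acid transporter gene Slc7a5 (1.12 ± 0.20, adjusted p = 0.000115) rose too. The count of 13 was 8 with the length slope in the model and 6 without hypoxia libraries 3, 4 and 6. Cholesterol synthesis genes were higher in 15 of 23, lower in 0 and not called in 8 (median 0.45), among them the isoprenoid enzyme gene Idi1 (1.06 ± 0.15, adjusted p = 7.51e-06).

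Oxidative metabolism showed no single direction. Nuclear-coded subunits of the respiratory chain were higher in 18 of 37, lower in 1 and not called in 18, with a median log2 fold change of 0.27, and the count of 18 became 9 without hypoxia libraries 3, 4 and 6 and 28 without hypoxia libraries 1 and 5. Cox4i1, the ubiquitous subunit 4 of cytochrome c oxidase, was higher by 0.61 ± 0.11 (adjusted p = 0.000171). Genes of fasting-type fatty acid oxidation were lower in 7 of 26, higher in 1 and not called in 18, and the count of 7 became 16 with the length slope, 12 with total-count scaling and 11 without hypoxia library 4.

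Of 19 circadian clock genes 5 were higher (3 without hypoxia libraries 1 and 5), 2 lower and 12 not called. Arntl, the core activator also called Bmal1, had 10.5, 11.4 and 13.96 CPM under hypoxia, against 19.3, 25.5 and 29.4 CPM under normoxia (-1.10 ± 0.13, adjusted p = 5.31e-07). Npas2, a gene of the same family of activators, was the other lower one (-1.49 ± 0.24, adjusted p = 3.55e-05). Dbp, an output gene in the opposite phase to Arntl in mouse tissues, had 28.8, 51.4 and 60.5 CPM under hypoxia, against 9.55, 21.1 and 30.2 CPM under normoxia (1.26 ± 0.25, adjusted p = 0.00034), and the repressor gene Nr1d2 was higher (0.93 ± 0.15, adjusted p = 3.13e-05). The hour at which each lung was taken is not given in the sources used here, so time of day and oxygen cannot be told apart for these genes. Glucocorticoid-induced genes were higher in 9 of 25, lower in 1 and not called in 15; Fkbp5 had 14.4, 17.8 and 27.6 CPM under hypoxia, against 6.38, 8.35 and 10.8 CPM under normoxia (1.15 ± 0.29, adjusted p = 0.00302), and metallothionein 2 (Mt2) rose by 1.37 ± 0.25 log2 units (adjusted p = 0.000137). Heat shock and cold-inducible genes were higher in 2 of 21, lower in 6 (3 without hypoxia libraries 1 and 5) and not called in 13. Of the 2 cold-inducible RNA-binding proteins, Rbm3 had 323, 359 and 409.7 CPM under hypoxia, against 96.9, 124 and 135 CPM under normoxia, while Cirbp did not pass (0.08 ± 0.14, adjusted p = 0.688). The heat shock gene Hsph1 was lower (-0.96 ± 0.24, adjusted p = 0.00279).

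Immediate early genes were lower in 7 of 23, higher in 4 and not called in 12, but the count of 7 became 1 to 4 on leaving out any 1 of hypoxia libraries 1, 2, 3 and 6 or of normoxia libraries 2, 3, 4 and 5. Egr1 varied from 19.4 to 99.0 CPM among normoxia libraries. Its lower level under hypoxia (-1.41 ± 0.44, adjusted p = 0.0154) was not called in limma-voom (0.0593) or without hypoxia libraries 3, 4 and 6 (0.109). The small Maf factor gene Maff went the other way, with 56.0, 65.3 and 76.5 CPM under hypoxia, against 16.3, 20.3 and 22.7 CPM under normoxia (1.73 ± 0.12, adjusted p = 1.04e-10). Feedback genes of ERK signalling were higher in 5 of 16 (3 without normoxia library 5 or with total-count scaling), lower in 3 and not called in 8, with a median log2 fold change of 0.02. Among the higher ones, the phosphatase gene Dusp6 had 129.6, 216 and 229.9 CPM under hypoxia, against 70.6, 87.1 and 98.9 CPM under normoxia (1.26 ± 0.16, adjusted p = 2.06e-06). The ERK-responsive factor gene Etv4 (2.42 ± 0.39, adjusted p = 2.69e-05) and the inhibitor gene Spry4 (1.02 ± 0.17, adjusted p = 5.13e-05) rose with it.

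Genes of xenobiotic metabolism were lower or not called. Of 28 tested genes 17 were lower, 0 higher and 11 not called, with a median log2 fold change of -0.63. Cyp1a1, the classic target of the aryl hydrocarbon receptor, had 0.827, 1.05 and 1.21 CPM under hypoxia, against 20.5, 32.4 and 37.2 CPM under normoxia. No tested gene had a lower log2 fold change (-4.90 ± 0.45, adjusted p = 2.63e-08). Aldh3a1, another target of that receptor, had 12.1, 17.9 and 32.4 CPM under hypoxia, against 39.3, 52.8 and 78.6 CPM under normoxia (-1.51 ± 0.22, adjusted p = 1.15e-05). The ethanol-oxidising cytochrome gene Cyp2e1 was lower with overlapping groups (-2.54 ± 0.59, adjusted p = 0.0019). Its highest levels were in normoxia libraries 3 and 6 (21.3 and 22.4 CPM). Those libraries were also the highest for the fat cell gene Adipoq (28.4 and 17.2 CPM), and the part of attached fat was not tested. The glutathione transferase gene Gstm1 was lower (-0.97 ± 0.18, adjusted p = 0.000209). It also stands in the list of NRF2 and antioxidant genes, of which 4 of 28 were higher (1 without hypoxia libraries 3, 4 and 6), 4 lower (9 with the length slope) and 20 not called, with a median of -0.01. Catalase (Cat) was among the lower members of that list (-0.68 ± 0.14, adjusted p = 0.000687).

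Retinoid genes were lower in 8 of 15, higher in 2 and not called in 5. Cyp26b1, which degrades retinoic acid, had 10.3, 13.9 and 30.2 CPM under hypoxia, against 10.7, 53.02 and 754 CPM under normoxia (-4.02 ± 0.94, adjusted p = 0.00209; 0.0826 in limma-voom). Lrat, which stores retinol as esters, had 16.9, 26.9 and 33.8 CPM under hypoxia, against 26.9, 80.0 and 279 CPM under normoxia (-2.07 ± 0.50, adjusted p = 0.00267). The retinal reductase gene Dhrs3 was lower without overlap (-1.23 ± 0.17, adjusted p = 3.62e-06). Normoxia libraries 1 and 2 were the highest for all 3 genes. They held 663 and 754 CPM of Cyp26b1, where the other normoxia libraries held 10.7 to 76.3 CPM. For Lrat they held 167 and 279 CPM (others 26.9 to 108), and for Dhrs3 198 and 231 CPM (others 102 to 133). Genes of the insulin-like growth factor axis were higher in 2 of 15 (1 on leaving out hypoxia library 3 or 4 or normoxia library 3 or 5), lower in 4 and not called in 9. Among them, Igfbp3 had 11.4, 18.03 and 33.5 CPM under hypoxia, against 74.5, 117 and 135 CPM under normoxia (-2.55 ± 0.25, adjusted p = 6.2e-08), while Igf1 was higher (1.05 ± 0.22, adjusted p = 0.000676).

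Most T cell genes were lower, and fewer of the other lymphoid and dendritic cell lists were called. Of 17 tested T cell genes 13 were lower, 0 higher and 4 not called (median log2 fold change -0.73). B cell genes were lower in 4 of 19, higher in 0 and not called in 15 (median -0.33), and the count of 4 became 2 without hypoxia libraries 3, 4 and 6, 1 without normoxia library 5 and 7 without hypoxia library 6. Lef1, a factor of naive T cells, had 2.24, 3.57 and 3.99 CPM under hypoxia, against 5.67, 6.62 and 8.44 CPM under normoxia (-0.996 ± 0.17, adjusted p = 7.35e-05), and Bcl11b, a T lineage factor, was lower by -1.14 ± 0.28 (adjusted p = 0.00205). Dendritic cell genes were lower in 7 of 16, higher in 0 and not called in 9. Clec9a of conventional type 1 cells had 10.97, 13.4 and 16.4 CPM under hypoxia, against 23.7, 27.1 and 31.3 CPM under normoxia (-1.02 ± 0.13, adjusted p = 1.34e-06), and Cd209a of monocyte-derived and type 2 cells had 5.001, 7.12 and 8.74 CPM under hypoxia, against 15.5, 17.3 and 18.8 CPM under normoxia (-1.30 ± 0.15, adjusted p = 3.2e-07). Siglech, a marker of plasmacytoid cells, was lower as well (-1.67 ± 0.32, adjusted p = 0.000209). Natural killer cell genes were lower in 1 of 18, higher in 0 and not called in 17, and class I antigen presentation genes were called in 0 of 14. Interferon-stimulated genes were lower in 6 of 30, higher in 1 and not called in 23, and the count of 6 became 10 with only the 12 vehicle libraries and 3 without hypoxia libraries 3, 4 and 6. The higher gene was Rsad2 (1.24 ± 0.30, adjusted p = 0.00234, and 0.0559 without hypoxia libraries 3, 4 and 6).

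Alveolar macrophage genes were higher in 8 of 22, lower in 2 and not called in 12. The cathepsin gene Ctsk had 51.1, 71.4 and 100.1 CPM under hypoxia, against 29.6, 32.8 and 40.6 CPM under normoxia (1.15 ± 0.12, adjusted p = 8.42e-08), and the proton pump subunit gene Atp6v0d2 had 28.7, 36.2 and 42.6 CPM under hypoxia, against 13.8, 17.5 and 21.2 CPM under normoxia (1.01 ± 0.11, adjusted p = 1.57e-07). Neutrophil genes were higher in 5 of 19, lower in 3 and not called in 11, with a median log2 fold change of 0.08. The higher ones include Ltf and Lcn2, given above among the airway secretory and acute-phase genes. Cd177 was higher by 1.65 ± 0.29 (adjusted p = 9.4e-05), while Mmp9, given among the proteases, was the lowest of the list at -1.22 ± 0.23.

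**Figure D4:**
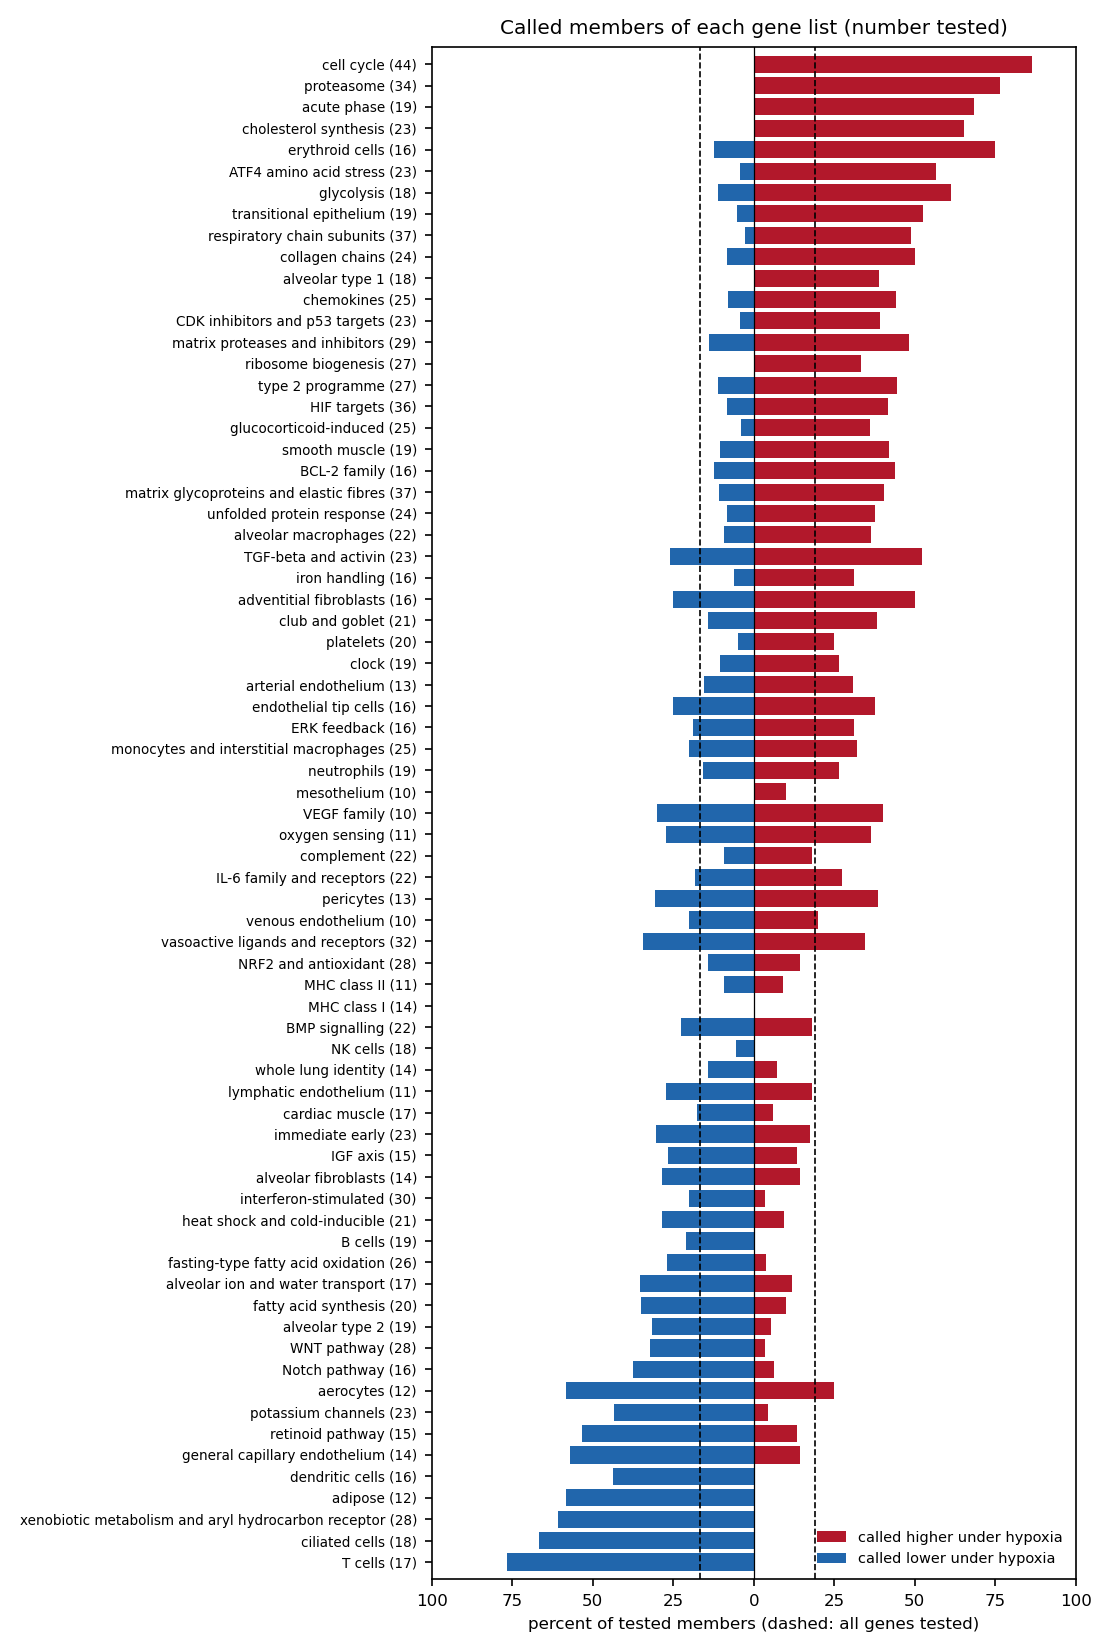
Bars show, for each gene list with 10 or more tested members, the percent of members called higher (red, right) and lower (blue, left) under hypoxia against normoxia with vehicle, and the dashed lines mark the 18.9% and 16.8% of all tested genes. Cell cycle, proteasome, erythroid and acute-phase lists reach furthest to the right, and T cell, ciliated and xenobiotic lists furthest to the left.

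The leading products of the alveolar epithelium did not pass the test. Surfactant protein C (Sftpc) had 18518, 25236 and 33257 CPM under hypoxia, against 19892, 27161 and 28095 CPM under normoxia (-0.05 ± 0.14, adjusted p = 0.808; 0.0382 at -0.32 with the length slope). Ager, the marker of alveolar type 1 cells, did not pass (0.13 ± 0.18, adjusted p = 0.609). Of 19 type 2 cell genes 6 were lower, 1 higher and 12 not called, among them complement C5 (Hc), with 238, 266 and 318 CPM under hypoxia, against 471, 551 and 687 CPM under normoxia (-1.06 ± 0.12, adjusted p = 2.38e-07). Of 18 type 1 cell genes 7 were higher (2 without hypoxia libraries 3, 4 and 6), 0 lower and 11 not called; podoplanin (Pdpn) was higher by 0.92 ± 0.19 (adjusted p = 0.000603). Genes of the transitional state seen in injured alveoli were higher in 10 of 19, lower in 1 and not called in 8, but in 3 without hypoxia libraries 3, 4 and 6. Ciliated cell genes were lower in 12 of 18, higher in 0 and not called in 6 (median -0.47). The axonemal gene Hydin had 7.28, 11.96 and 14.3 CPM under hypoxia, against 18.2, 23.9 and 29.95 CPM under normoxia (-1.06 ± 0.15, adjusted p = 8.71e-06), and Ccdc40, needed to assemble the inner dynein arms, had 9.70, 12.3 and 17.1 CPM under hypoxia, against 20.4, 25.7 and 30.2 CPM under normoxia (-1.01 ± 0.17, adjusted p = 7.65e-05).

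Of the marker lists for blood and for tissues beside the lung, the erythroid list had the most called members. Erythroid genes were higher in 12 of 16, lower in 2 and not called in 2, with a median log2 fold change of 1.91, and their summed level ranged from 9723 to 19818 CPM under hypoxia and from 2959 to 5236 CPM under normoxia. Slc4a1, the anion exchanger band 3 of the red cell membrane, had 7.46, 16.5 and 22.3 CPM under hypoxia, against 0.644, 1.44 and 2.39 CPM under normoxia (3.32 ± 0.34, adjusted p = 9.5e-08). The haem synthesis gene Alas2 rose by 2.05 ± 0.22 log2 units (adjusted p = 1.69e-07). Whether the lungs were perfused is not given in the sources used here.

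Fat cell genes were lower in 7 of 12 tested, higher in 0 and not called in 5 (2 lower with the length slope or without hypoxia libraries 3, 4 and 6, and 1 in limma-voom), and their summed level ranged from 221 to 298 CPM under hypoxia and from 197 to 642 CPM under normoxia. Adiponectin (Adipoq) varied from 0.373 to 3.72 CPM under hypoxia and from 1.06 to 28.4 CPM under normoxia (-2.79 ± 0.84, adjusted p = 0.0124), and was not called in limma-voom (0.0707), with the length slope (0.0677) or without hypoxia libraries 3, 4 and 6 (0.0971). The lipogenic gene Thrsp had 2.32, 3.74 and 4.52 CPM under hypoxia, against 5.25, 11.9 and 25.005 CPM under normoxia (-1.93 ± 0.33, adjusted p = 6.54e-05). The summed level of 17 heart muscle genes ranged from 672 to 1016 CPM under hypoxia and from 195 to 2442 CPM under normoxia, with 1 higher, 3 lower and 13 not called. The part of attached fat or heart tissue in the lower metabolic genes was not tested.

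Other genes with the largest changes fell outside these groups. Sectm1b, a secreted and membrane-bound protein of the lymphoid system, had 2.35, 4.55 and 15.2 CPM under hypoxia, against 0.118, 0.381 and 0.85 CPM under normoxia (3.58 ± 0.51, adjusted p = 8.64e-06). Among the lower ones, the asialoglycoprotein receptor gene Asgr1 had 2.99, 4.81 and 6.78 CPM under hypoxia, against 15.6, 22.7 and 27.1 CPM under normoxia (-2.16 ± 0.24, adjusted p = 3.34e-07). Prdm8 (-1.97 ± 0.28, adjusted p = 8.03e-06) and the carboxylesterase gene Ces1f (-1.84 ± 0.33, adjusted p = 0.000144) were lower without overlap. The BCL-2 family list holds both survival genes and pro-death genes, and ABT-263 inhibits survival proteins of the family. Under vehicle 7 of its 16 tested genes were higher (4 without hypoxia libraries 3, 4 and 6), 2 lower and 7 not called. The pro-death gene Bcl2l11 had 18.4, 20.5 and 26.0 CPM under hypoxia, against 32.6, 40.1 and 47.7 CPM under normoxia (-0.91 ± 0.12, adjusted p = 1.41e-06).

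The same contrast in the 12 libraries from mice given ABT-263, which share no library with those above, gave 6948 called genes (41.0%), 3656 higher and 3292 lower. Both contrasts come from 1 fit to all 24 libraries with a shared estimate of spread, so the 2 sets of calls are not independent. Of the 6053 genes called under vehicle, 4725 (78.1%) were also called in the same direction under ABT-263, which is 68.0% of the calls there, and 0 were called in the opposite direction. Over the 16935 genes the Pearson correlation of the 2 log2 fold changes was 0.846, a description across genes, which are not independent replicates. The difference between the 2 responses was called in 0 genes by edgeR's quasi-likelihood test, by DESeq2 and by limma-voom, and 624 genes (3.68%) had an unadjusted p under 0.05 in edgeR. The largest and most precise changes had the same direction under vehicle and under ABT-263: Retnla had log2 fold changes of 5.74 under vehicle and 4.65 under ABT-263, Ankrd37 3.98 and 2.98, Tagln 2.04 and 1.87, and Cyp1a1 -4.90 and -3.20. The retinoid enzyme gene Cyp26b1 had -4.02 under vehicle and -0.09 under ABT-263, a gap that did not pass the test of the difference. Counts of calls differed in some lists. Natural killer cell genes were lower in 1 of 18 under vehicle and in 15 under ABT-263 (median log2 fold changes -0.31 and -1.44). Fat cell genes were lower in 7 of 12 under vehicle and in 0 under ABT-263.

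**Figure D5:**
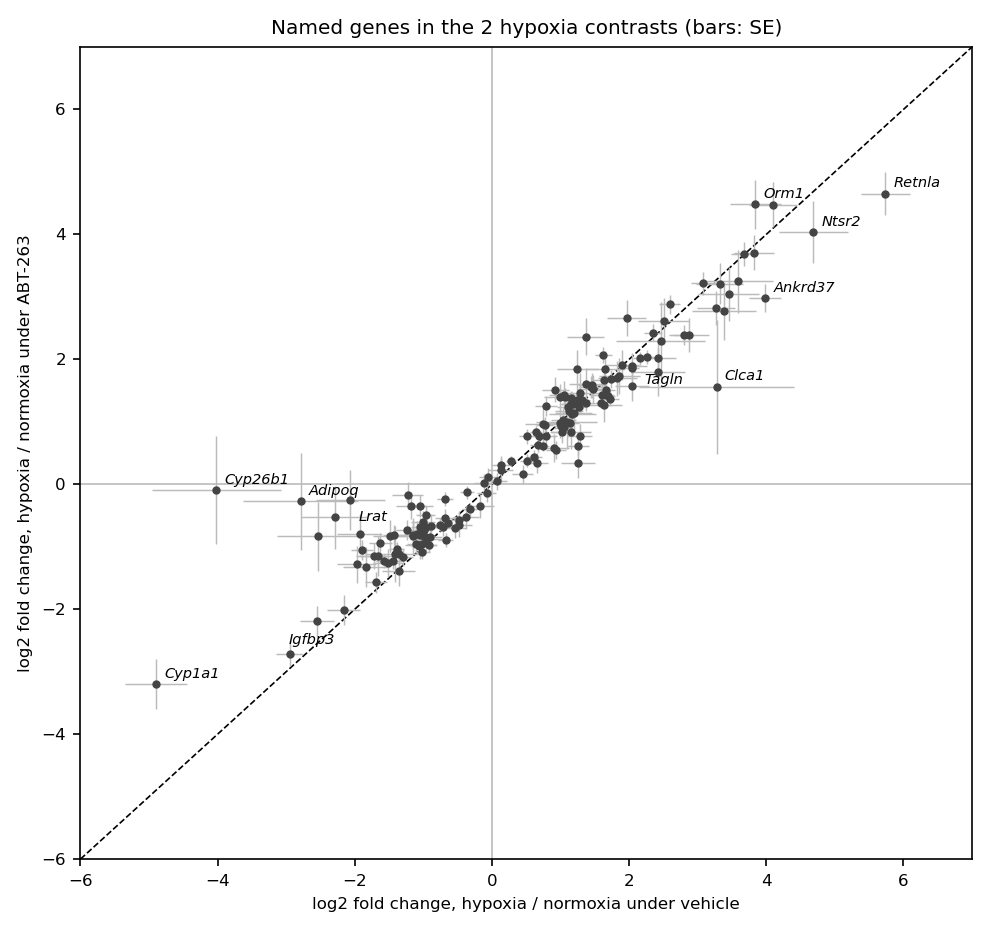
Each point is a gene named in the text (Retnlb, with 2 counts under normoxia, is left out), with its log2 fold change of hypoxia over normoxia under vehicle on the x axis and the same contrast under ABT-263 on the y axis; bars are standard errors and the diagonal marks equal changes. Most points lie along the diagonal, and Cyp26b1 and Adipoq lie farthest above it on the lower side.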

How the data were processed

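RNA was extracted from whole lung and sequenced as stranded mRNA libraries, per the labels' protocols. The authors deposited expected counts per gene; the submitters' processing notes name Trimmomatic, STAR, RSEM and the build GRCm38. Tool versions, annotation release and strand setting were not given in the sources used here. Every column of the table matched 1 of the 24 libraries, with 0 left over, and no row lacked a gene. RSEM divides reads between near-identical genes by estimation. Of the 162 named genes that were tested, 55 overlap a gene on the opposite strand and 22 one on the same strand in the GENCODE annotation of GRCm38, and are less certain as single genes.

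After rounding to whole numbers, the counts were fitted in edgeR 4.0.16 (R 4.3.3): genes were kept by filterByExpr with a minimum count of 10, libraries were scaled by TMM, and a robust quasi-likelihood F test with 1 mean per group was fitted to all 24 libraries, whose groups share the estimate of spread. P-values were adjusted by Benjamini and Hochberg over the 16935 genes. Levels are CPM, counts per 1000000 counts, after TMM scaling; summed marker levels are CPM of the total counts. SE is the log2 fold change divided by the square root of F. For the 5 library measures all regroupings of the 12 libraries into 6 and 6 were enumerated (two-sided exact permutation). Within groups no pair of libraries agreed within sampling noise (lowest chi-square per degree of freedom 8.14 under hypoxia and 9.42 under normoxia). The depth of 12854109 to 17095152 counts limits the precision of genes with few counts; intervals from counts cover counting error only. The fit was tested on simulated counts. DESeq2 1.42.0, limma 3.58.1 (voom), other scalings and filters and each library left out served as alternatives.

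The members, the 79 gene lists and the tests were chosen with earlier results of these data known. Named genes are taken from a rule: the 8 genes per direction with the smallest p, the 8 with the largest change among called genes with a mean of 5 CPM and no overlap, up to 4 called members per list with a mean of 1 CPM, and a standing set of hypoxia and lung genes (a few that the rule gives are not reported here); gene models, clones, pseudogenes and receptor segments were left out of the first pair. The following 21 were named after their values had been seen: Vhl, Fam162a, Hilpda, Pfkfb4, Pfkm, Ldhb, Calcrl, Kcnj8, Actg2, Cnn1, Tgfb3, Fbln1, Mmp9, Muc5b, Cx3cl1, Nr1d2, Fkbp5, Arg1, Scgb1a1, Alas2 and Axin2. The 4 promoter motifs were likewise chosen with results known. Of the listed symbols, 11 matched no row of the table.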

Additional observations from a re-analysis of the deposited data

Results flagged for a closer look

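Among the 162 tested genes named above, both vehicle groups were screened for a single library that stood apart from its group, and 17 of 324 groups had one; chance flags about 1 in 20. Of these, 7 were hypoxia libraries and 10 normoxia libraries, 4 of them normoxia library 5.

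In the hypoxia group, library 1 had 47.1 CPM of Fst (next 29.5) and 47.2 CPM of Hey1 (next 44.0). Hypoxia library 2 had 35.0 CPM of Orm1 (next 17.95) and 15.2 CPM of Sectm1b (next 4.72). Hypoxia library 3 had 6.51 CPM of Egln3 (next 3.73), library 4 had 27.6 CPM of Fkbp5 (next 18.4) and library 6 had 30.2 CPM of Cyp26b1 (next 15.0).

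In the normoxia group, library 5 had the lowest Sftpc, 19892 CPM where the next held 26983, and the highest Ldhb (411, next 349 CPM), Ces1f (27.5, next 20.8 CPM) and Mt2 (16.4, next 11.3 CPM). Normoxia library 6 was highest for Hsph1 (152, next 70.0 CPM) and Ntrk2 (11.8, next 9.05 CPM). Normoxia library 3 was highest for Agr2 (9.09, next 4.03 CPM) and held the 2 counts of Retnlb (0.129 CPM, the others 0). Normoxia library 1 was highest for Pdpn (27.5, next 16.9 CPM) and library 2 for Arg1 (3.91, next 2.43 CPM).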

How the results depend on the processing

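No paired analysis was possible because the labels give no replicate numbers, and the numbers used here follow accession order and only name libraries. Of 162 named and tested genes 153 were called. Of these, 139 were called under all of the 9 planned settings, 3 settings chosen after seeing the data and 12 removals of a single library. Under the 12 removals alone 148 were called, and no direction reversed. Most named genes were picked because they were called in the main fit, so these counts do not describe the calls at large. Losses stand beside the gene's value, apart from those in a test against a fold of 1.2 (among them Hilpda, lost there alone) and those of Vhl. Under that test 2673 genes were called under vehicle (1552 higher, 1121 lower) and 3163 under ABT-263. Without hypoxia libraries 3, 4 and 6, a setting that leaves fewer samples, 3974 were called, 1708 of them lower. Leaving out 1 library gave 5167 to 6547 calls under vehicle (2838 to 3420 higher, 2329 to 3127 lower, 780 to 950 of 2-fold or more) and a haemoglobin difference of 0.99 to 1.19 percentage points. The other settings kept the count of calls within 1.5 times, while the share of higher genes ran from 42.4% with total-count scaling to 60.6% with haemoglobin genes left out of library sizes. Of the 3386 longest genes by exonic length 13.6% were higher and 22.3% lower, and of the 3387 shortest 24.03% and 10.3%; the cause was not tested.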
